A study of Mus musculus and synthetic construct with 30 samples.

Results

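A set of 10 genes of the fibroblast growth factor (FGF) pathway were followed across the *Peril* knockout series, chosen by symbol out of the 26759 genes that the RNA-seq files quantify. They are 3 ligands (Fgf4, Fgf9 and Fgf10), the 4 receptor tyrosine kinases of the family (Fgfr1 to Fgfr4) and 3 targets of the pathway that feed back on it (Spry2, Spry4 and Dusp6). All 10 were found once in each file, and all 10 passed the filter on low counts. On mm10 (GENCODE annotation), Fgf4 lies on chromosome 7 from 144847367 to 144865243, Fgf9 on chromosome 14 from 58070547 to 58112720 and Fgf10 on chromosome 13 from 118669791 to 118792115. Fgfr1 lies on chromosome 8 from 25513654 to 25575718, Fgfr3 on chromosome 5 from 33721674 to 33737068, Spry2 on chromosome 14 from 105891947 to 105896819 and Dusp6 on chromosome 10 from 99263231 to 99267489.

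FGF ligands are secreted proteins that bind their receptors together with heparan sulfate chains on the cell surface. The receptors dimerize and signal through RAS and the kinases RAF, MEK and ERK, and active ERK raises the transcription of its own inhibitors. The Sprouty proteins (Spry2, Spry4) restrain receptor signalling upstream of RAF, and Dusp6 is a phosphatase that removes phosphate from ERK in the cytoplasm. In pluripotent cells Fgf4 is the best known autocrine ligand and pushes cells out of the naive state. 2i medium, which holds an inhibitor of MEK and an inhibitor of GSK3, keeps cells naive by blocking that route. In the embryonic kidney, FGF signals keep nephron progenitors alive and support branching of the ureteric bud, and in the forebrain they pattern the ventral telencephalon and its progenitors.

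Poly(A) RNA was sequenced from 16 samples of 3 kinds. Mouse embryonic stem cells (mESC) in 2i medium on feeder fibroblasts gave 3 wells of wild type (WT) clone 4 and 3 wells of *Peril* knockout (KO) clone 6, all male. Kidneys of E14.5 embryos of litter 43 gave 3 WT libraries (embryos 1, 3 and 8, of which 3 is female) and 3 KO libraries (embryos 7, 9 and 10, of which 7 is male). Ganglionic eminence with olfactory bulb (GE/OB) of E14.5 embryos of litter 46 gave 2 WT libraries (embryos 1 and 3, both male) and 2 KO libraries (embryos 2 and 7, both female). The strain is Periltm1.1Vlcg on a mix of C57BL/6J and 129S6 labelled N3 and free of the Neo cassette, and in KO samples a LacZ reporter stands in place of the lincRNA *Peril*. The GE/OB genotypes differ in sex throughout, and the 2 factors cannot be told apart. In mESC the wells of a genotype come from 1 clone, so no p-value there covers the spread between clones, and clone and genotype cannot be told apart. The main edgeR fit also took 1 estimate of the spread per gene from all 16 samples, wells and embryos together. Its p-values in mESC therefore do not rest on the spread between wells alone. The authors' sample sheet also gives the KO wells a later passage than the WT wells, which moves with genotype in the same way.

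Libraries held 17544707 to 45924887 counts. LacZ was at 69.60 to 73.67 TPM (a transcript level per unit of length, scaled to the library total) in mESC KO wells and 44.43 and 45.79 TPM in GE/OB KO embryos, against at most 0.10 TPM in the WT libraries of both tissues. In the kidney LacZ was at 0.08 to 0.15 TPM in KO and 0.09 to 0.47 TPM in WT libraries and *Peril* had 0 counts in all 6, so neither gene checks the kidney labels. *Peril* also had 0 counts in the 4 GE/OB libraries. In mESC it was at 0.33 to 0.57 TPM in WT and 0.16 to 0.24 TPM in KO wells. Summed markers were read in each tissue. The 8 stem cell markers reached 3720 to 3771 TPM in mESC, the 8 kidney markers (7 of them from 1 TPM) 431.8 to 536.2 TPM in kidney and the 8 GE/OB markers 1012 to 1095 TPM in GE/OB. The GE/OB libraries also held 537.1 to 643.6 TPM of 4 cortex markers (Tbr1, Emx1, Neurod6 and Neurod2). These are bulk samples, in which fewer cells of a type and less RNA per cell cannot be told apart.

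The first question was how the pathway is composed in each tissue. Fgf4 dominated the ligand genes of stem cells. It made up 87.6% of the summed TPM of 22 FGF genes in mESC WT wells (87.4 to 87.7%), and the sum over those genes was 205 ± 0.16 TPM (SD, n = 3). In WT kidney the sum was 48.7 ± 0.443 TPM (SD, n = 3), and the highest mean share was the 19.6% of Fgf18, which ranged from 13.1 to 28.2% between embryos. In WT GE/OB the sum was 228 ± 0.424 TPM (SD, n = 2), of which Fgf13 took 57.4% and Fgf15 17.1%. Fgf11 to Fgf14 encode intracellular FGF homologous factors that are not known as secreted receptor ligands, so most of the GE/OB sum is not from secreted ligands. By mean TPM in WT, the further genes of at least 1 TPM in kidney were Fgf18 (9.53), Fgf8 (6.80), Fgf1 (5.93), Fgf11 (4.79), Fgf20 (3.46), Fgf2 (2.66), Fgf13 (2.47) and Fgf7 (1.31). In GE/OB they were Fgf13 (131.2), Fgf15 (39.1), Fgf11 (17.2), Fgf14 (14.3), Fgf12 (8.66), Fgf18 (3.96), Fgf3 (3.36), Fgf17 (2.22), Fgf7 (1.71) and Fgf8 (1.01).

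**Figure D1:**
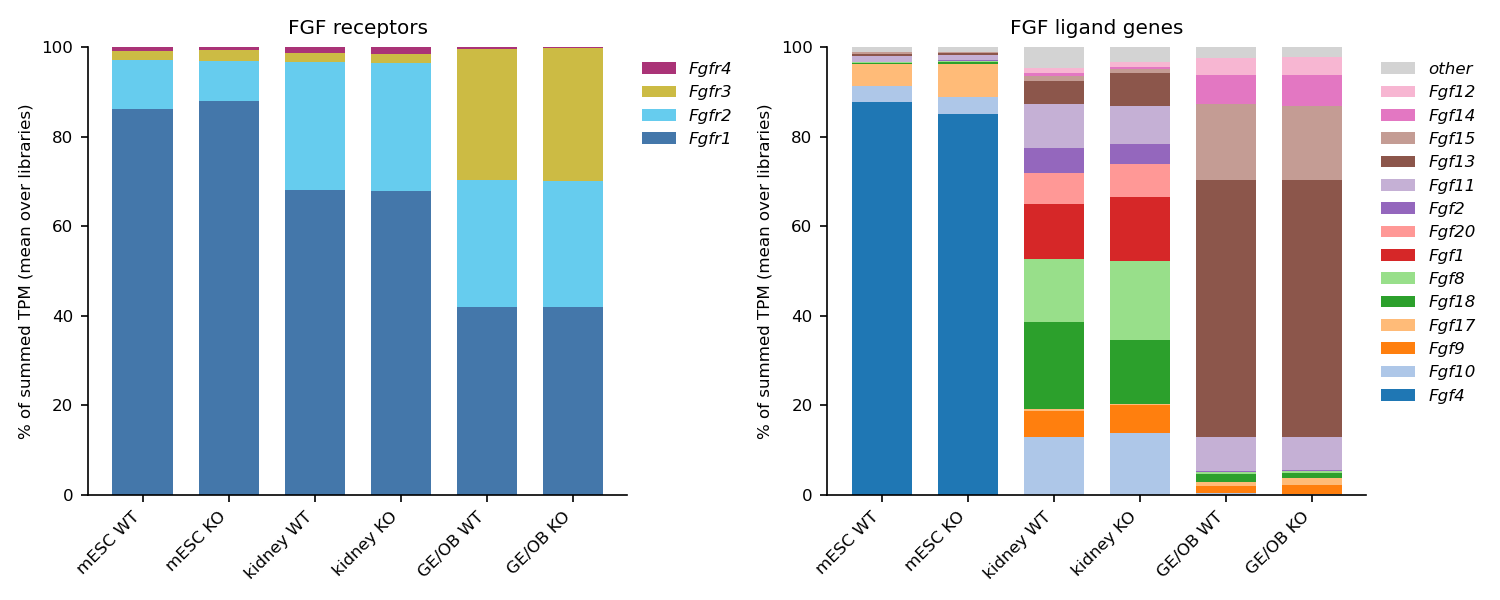
Share of each gene in the summed TPM of the 4 receptors (left) and of 22 FGF ligand genes (right), as the mean percent over the libraries of each group. Fgfr1 falls from 86.2% of receptor TPM in mESC WT to 68.1% in kidney WT and 41.9% in GE/OB WT, and Fgf4 holds 87.6% of ligand TPM in mESC WT and 85.1% in mESC KO.

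Of the 3 ligands, Fgf4 was present in mESC and all but absent elsewhere. Its 3 WT wells read 179.6, 179.3 and 179.8 TPM, and the spread between them was 0.245 TPM (SD). In WT kidney 1 count was found in embryo 1 and 0 counts in embryos 3 and 8, against 34826 counts over the 3 mESC WT wells. As counts scaled to the library totals (CPM) that is a ratio of 27340, with an exact 95% interval of 4907 to 1080000 that covers counting error only. All 4 GE/OB libraries had 0 counts of Fgf4. Taking 3 counts over the WT group as the limit that 0 allows, Fgf4 was at least 4228-fold higher in mESC WT than in GE/OB WT.

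Fgf9, a ligand that signals to mesenchyme in many organs, had the opposite pattern at a low level. WT GE/OB embryos 1 and 3 read 3.37 and 4.21 TPM, and WT kidneys 1, 3 and 8 read 3.39, 3.35 and 1.87 TPM. The mESC WT wells held 3, 4 and 4 counts (0.10, 0.09 and 0.07 TPM). GE/OB and kidney libraries overlapped, and both stood above every mESC well. Fgf10, a mesenchymal ligand needed for budding of limb and lung, was at 7.68, 7.21 and 7.29 TPM in mESC WT and 6.94, 5.06 and 6.71 TPM in kidney WT. In GE/OB WT it was at 0.63 and 0.80 TPM. The lowest mESC well lay above the highest kidney by less than the range within either group, and GE/OB was far below both.

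Among the receptors, Fgfr1 led in every tissue and its partners changed. Fgfr1, the receptor with the widest expression, read 35.13, 32.63 and 38.29 TPM in mESC WT, 120.3, 103.6 and 124.8 TPM in kidney WT and 78.33 and 65.02 TPM in GE/OB WT. These 3 groups did not overlap. Its share of the summed receptor TPM fell across the tissues all the same, from 86.2% in mESC WT to 68.1% in kidney WT and 41.9% in GE/OB WT. Fgfr2, whose splice forms serve epithelium and mesenchyme, was at 4.28, 4.74 and 4.19 TPM in mESC WT. It was at 52.44, 48.37 and 44.37 TPM in kidney WT and 54.22 and 43.21 TPM in GE/OB WT, 2 groups that overlapped fully.

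Fgfr3, in the brain a receptor of neural progenitors and astrocyte precursors, marked GE/OB. WT embryos 1 and 3 read 61.62 and 40.34 TPM, against 3, 4.62 and 2.63 TPM in kidney WT and 0.88, 0.92 and 0.84 TPM in mESC WT. It made up 29.3% of receptor TPM in GE/OB WT and about as little of it in kidney (2.03%) as in mESC (2.16%). Fgfr4 was the rarest receptor. It had 2.53, 2.65 and 1.91 TPM in kidney WT, while the 9, 23 and 24 counts in mESC WT wells and the 8 and 15 counts in GE/OB WT embryos gave 0.14 to 1.17 TPM. The summed receptor level was 41.0 ± 2.59 TPM in mESC WT (SD, n = 3), 170 ± 9.92 TPM in kidney WT (SD, n = 3) and 172 ± 31.6 TPM in GE/OB WT (SD, n = 2).

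**Figure D2:**
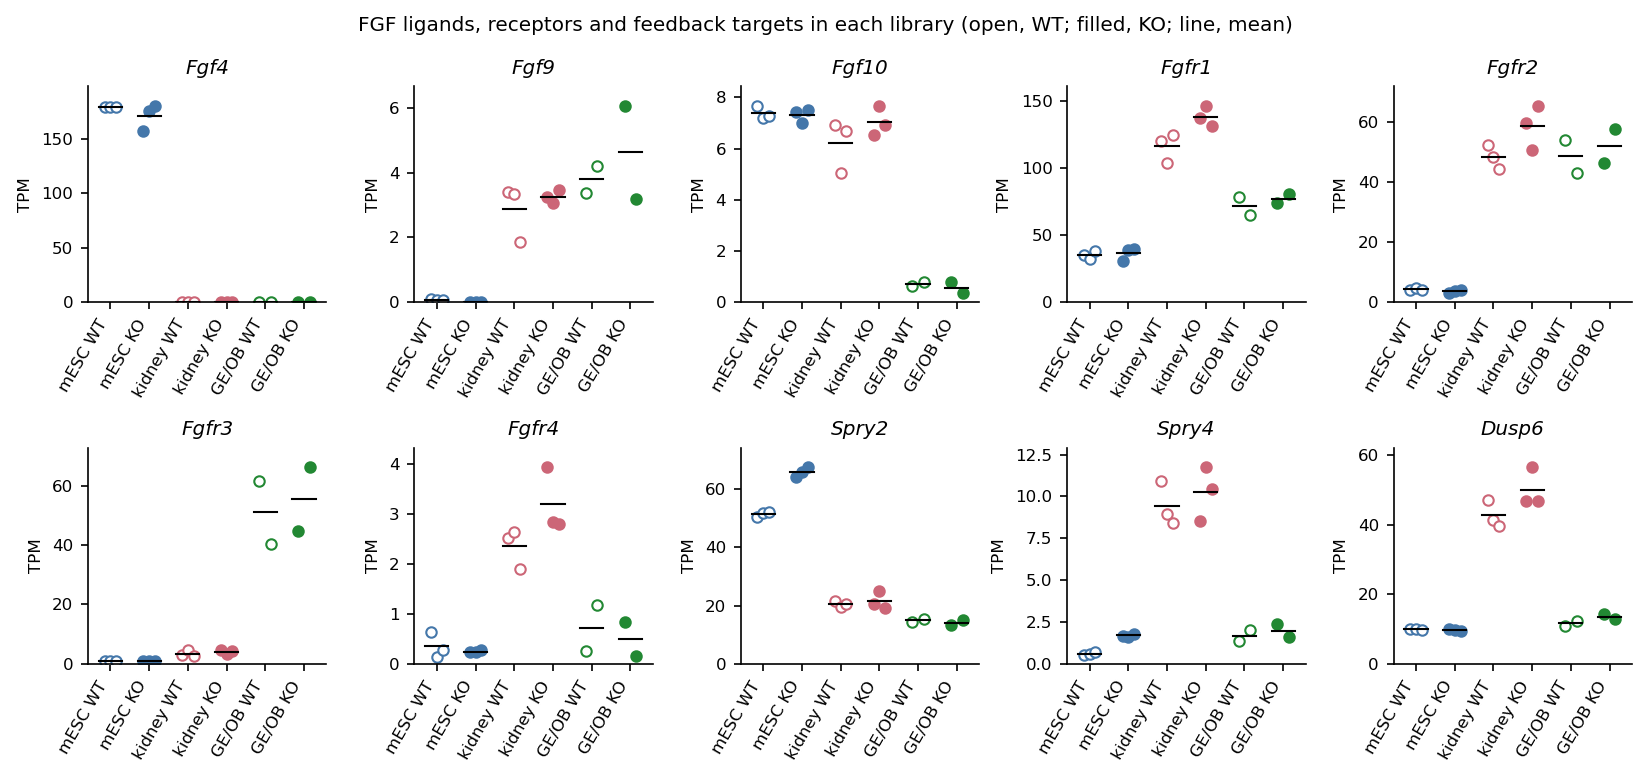
TPM of each of the 10 genes in each of the 16 libraries, on a linear axis from 0 that differs between genes; open circles are WT, filled circles KO, and lines are group means. Fgf4 sits near 180 TPM in mESC WT and at 0 in GE/OB, Fgfr3 is high in GE/OB, and Spry4 and Dusp6 are highest in kidney.

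The feedback targets split. Spry2 was highest in mESC, and Spry4 and Dusp6 were highest in kidney. Spry2 read 50.29, 51.87 and 51.98 TPM in mESC WT, 21.66, 19.61 and 20.60 TPM in kidney WT and 14.31 and 15.48 TPM in GE/OB WT, without overlap between tissues. Spry4 read 0.52, 0.57 and 0.71 TPM in mESC WT, 10.94, 8.93 and 8.43 TPM in kidney WT and 1.36 and 2.01 TPM in GE/OB WT. Dusp6 read 10.15, 10.14 and 9.73 TPM in mESC WT, 47.23, 41.41 and 39.64 TPM in kidney WT and 10.89 and 12.40 TPM in GE/OB WT. In mESC the 2 Sprouty genes thus lay far apart, with a mean of 51.4 TPM for Spry2 and 0.600 TPM for Spry4.

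Tissues were compared with edgeR's quasi-likelihood test on counts, and the p-values of the 17459 genes tested were adjusted together (Benjamini-Hochberg). Between such different tissues most genes pass, so counts of genes say little here and sizes are given. Kidney WT against mESC WT called 9 of the 10 genes (7 higher, 2 lower), where 84.3% of all genes were called (44.1% higher, 40.2% lower). GE/OB WT against mESC WT called 9 (5 higher, 4 lower), with 84.8% of all genes called (43.5% higher, 41.3% lower). GE/OB WT against kidney WT called 8 (1 higher, 7 lower), with 78.4% of all genes called (37.9% higher, 40.6% lower).

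In kidney against mESC, Fgf4 aside (1 count in WT kidney), the largest log2 differences by edgeR were those of Fgf9 (4.99 ± 0.35, SE, adjusted p = 7.19e-10), Spry4 (3.92 ± 0.18, adjusted p = 2.56e-12) and Fgfr2 (3.49 ± 0.11, adjusted p = 1.43e-14). The Fgf9 value rests on 3, 4 and 4 counts in the mESC WT wells, close to the limit of detection. Spry2 was lower by edgeR at -1.36 ± 0.08 (adjusted p = 1.25e-10). Fgf10 was the gene not called (-0.28 ± 0.14, adjusted p = 0.0666), though it was called without kidney WT embryo 8 (-0.36, adjusted p = 0.0366) or embryo 1 (-0.35). In GE/OB against kidney Fgfr3 alone was higher (2.98 ± 0.21, edgeR adjusted p = 8.68e-10), and Fgf10 (-3.77 ± 0.23), Fgfr4 (-3.18 ± 0.37), Spry4 (-3.12 ± 0.21) and Dusp6 (-2.51 ± 0.11) were lower, with adjusted p from 2.12e-12 to 7.34e-07. In GE/OB against mESC Fgfr3 was higher by 4.89 ± 0.24 and Fgf10 lower at -4.05 ± 0.23 (edgeR adjusted p = 3.37e-12 and 2.85e-11). Fgf9 did not differ detectably between GE/OB and kidney, nor Fgfr4 between GE/OB and mESC. For Fgf4, with 1 count in WT kidney and 0 in WT GE/OB, the test between these tissues could not find a difference.

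The scale matters for the GE/OB comparisons. On log2(TPM + 0.5) the median of all genes tested stood at 0.51 for GE/OB against mESC and at 0.47 for GE/OB against kidney, while on counts the medians were 0.06 and -0.04. With counts, edgeR called Dusp6 lower in GE/OB than in mESC (log2 -0.46, adjusted p = 0.00093) and Fgfr2 lower than in kidney (-0.63, adjusted p = 4.24e-05), but on TPM these differences were 0.21 and 0.0037. The Dusp6 difference was -0.14 and not called in the KO libraries of the same tissues (adjusted p = 0.212). Neither Fgfr4 against mESC (-0.14, edgeR adjusted p = 0.778) nor Fgf9 against kidney (-0.16, edgeR adjusted p = 0.58) was called on counts, and on TPM they stood at 0.43 and 0.38. Relative to the median of each scale, all 4 were below 0 on both. The call of Fgfr1 as higher in GE/OB than in mESC (log2 0.24 ± 0.09, edgeR adjusted p = 0.0205) was lost without GE/OB WT embryo 1 (adjusted p = 0.167), mESC WT well 2 (0.072) or mESC WT well 1 (0.0543). On TPM this Fgfr1 difference was 1.01, and relative to the median of each scale it was 0.18 on counts and 0.49 on TPM. Spry4 was called higher in GE/OB WT than in mESC WT (0.79 ± 0.24, edgeR adjusted p = 0.00623), which was lost without GE/OB WT embryo 3 (0.49, adjusted p = 0.142), and in the KO libraries of the same tissues the difference was -0.38 (adjusted p = 0.0938).

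The second question was how the pathway differed between KO and WT samples, and mESC gave the only calls. In mESC the genotype cannot be told apart from clone or passage. Spry4 was 2.69-fold higher and Spry2 1.22-fold higher in KO wells, and none of the receptors or ligands passed the test. These were 2 of the 10 genes, both higher, where 6.86% of all genes were called 2.27% higher and 4.59% lower. At an unadjusted p under 0.05 the members were 4 (Spry4, Spry2, Fgf4 and Fgf9), against 21.2% of all genes. Spry4 read 0.52, 0.57 and 0.71 TPM in WT wells and 1.69, 1.63 and 1.80 TPM in KO wells. Its counts were 46, 53 and 84 in WT and 157, 84 and 148 in KO wells, and on TPM the genotypes lay well apart. The log2 difference was 1.43 ± 0.20 (SE, edgeR adjusted p = 0.000308), and it stayed called without any 1 of the 6 wells (1.34 to 1.58, adjusted p 0.00112 to 0.00317). Even so, KO wells had less Spry4 than any kidney library, where the lowest read 8.43 TPM.

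Spry2 read 50.29, 51.87 and 51.98 TPM in WT wells and 63.95, 65.68 and 67.43 TPM in KO wells, again without overlap. The log2 difference was 0.28 ± 0.08 (SE, edgeR adjusted p = 0.0455). That call was at the margin. Leaving out any 1 of the 6 mESC wells gave 0.27 to 0.30 with adjusted p from 0.0894 to 0.161. With sex as a covariate in the fit of all tissues the adjusted p was 0.0509. All 6 mESC wells are male, so that term could not adjust this contrast, and the log2 difference stayed at 0.28. Dusp6, the third feedback gene, read 10.15, 10.14 and 9.73 TPM in WT and 9.96, 9.76 and 9.38 TPM in KO wells, which overlapped (log2 -0.11 ± 0.09, edgeR adjusted p = 0.54).

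Non-overlap of wells was frequent in mESC, where the WT and KO wells of 38.6% of genes with a mean of at least 1 TPM did not overlap. By TPM, Spry2, Spry4 and Fgf9 were the members without overlap, of which Fgf9 is below 1 TPM and so outside the genes behind that share. Fgf9 was at 3, 4 and 4 counts in WT and at 1.01, 0 and 0 in KO wells, so it was close to the limit of detection in both. In CPM the ratio of WT to KO was 8.37 from 11 against 1 counts. Its exact 95% interval of 1.22 to 360 covers counting error only and leaves out the spread between wells, and by edgeR the difference was not called (adjusted p = 0.113). Fgf4 read 179.6, 179.3 and 179.8 TPM in WT and 157.8, 175.9 and 180.6 TPM in KO wells. On TPM KO well 1 was the low one and KO well 3 lay above all WT wells. In CPM the wells did not overlap, at 341.6, 342.9 and 341.3 in WT and 299.9, 333.9 and 337.6 in KO, and the difference was not called (log2 -0.14 ± 0.05, edgeR unadjusted p = 0.0231 and adjusted p = 0.153).

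The other ligand and the receptors gave overlapping wells. Fgf10 read 7.45, 7.02 and 7.52 TPM in KO wells (log2 -0.07 ± 0.14, edgeR adjusted p = 0.838). Fgfr1 read 31.11, 39.02 and 39.72 TPM in KO wells, on both sides of its WT range. Fgfr2 read 3.22, 3.82 and 4.26 TPM in KO wells (log2 -0.21 ± 0.13, edgeR adjusted p = 0.364), Fgfr3 1.09, 0.91 and 1.11 TPM and Fgfr4 0.23, 0.24 and 0.27 TPM. The 95% interval ran from -0.17 to 0.14 for Fgfr1 on the log2 scale but from -0.89 to 0.61 for Fgfr4, so the Fgfr4 interval does not exclude a change of 1.5-fold. Fgfr1 held 87.8% of receptor TPM in KO wells, against 86.2% in WT wells.

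**Figure D3:**
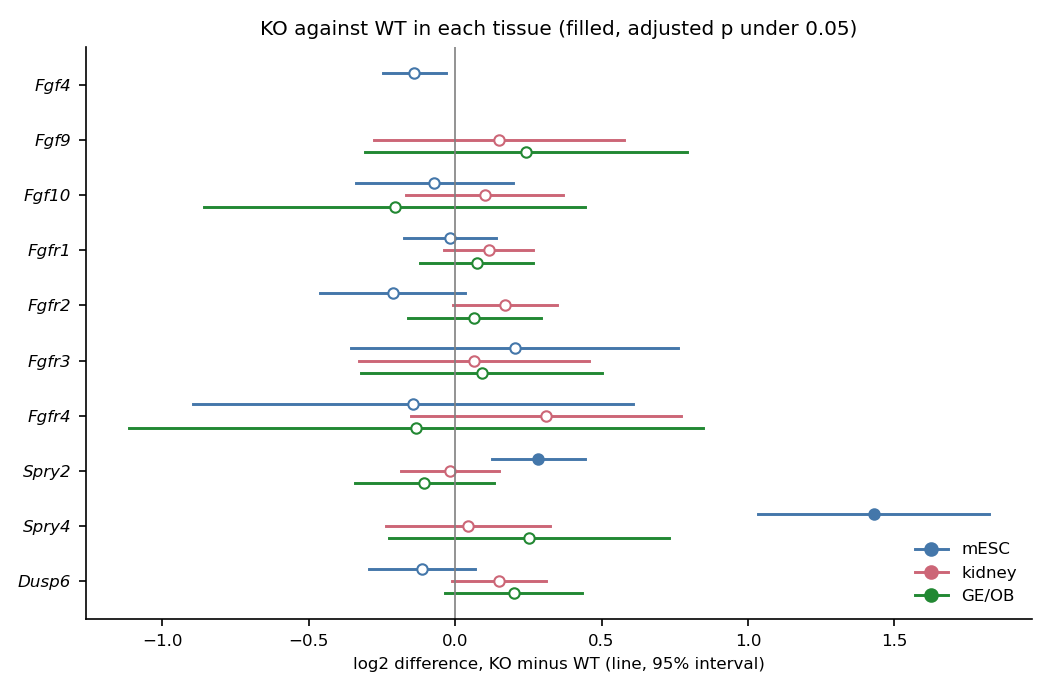
KO minus WT on the log2 scale for each gene in mESC, kidney and GE/OB, from the edgeR fit of counts. Lines are 95% intervals (1.96 standard errors each way) and filled circles mark an adjusted p under 0.05. Only Spry4 (1.43) and Spry2 (0.28) in mESC are filled; Fgf4 in kidney and GE/OB and Fgf9 in mESC are left out because a genotype there has at most 3 counts in all.

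Other genes of the pathway, in lists chosen with earlier results of these data known, were read in the same fit. Of 21 further feedback and ERK-responsive genes, 2 were higher and 1 was lower in mESC KO wells, where 2.27% of all genes were called higher and 4.59% lower. At an unadjusted p under 0.05 there were 5 of the 21, against 21.2% of all genes. Etv4, an ETS transcription factor induced by FGF and ERK, rose 3.59-fold, from 2.72, 4.48 and 3.92 TPM to 14.49, 13.65 and 16.56 TPM (log2 1.84 ± 0.13, edgeR adjusted p = 1.47e-07). Spred3, a relative of the Sprouty genes, rose from 1.48, 1.37 and 0.96 TPM to 2.09, 2.25 and 2.79 TPM (0.78 ± 0.16, edgeR adjusted p = 0.00565). Ier3, an immediate early gene, fell from 10.47, 10.42 and 9.57 TPM to 6.29, 6.11 and 5.51 TPM (-0.83 ± 0.13, edgeR adjusted p = 0.000958). Wells of the genotypes did not overlap for any of the 3, against 38.6% of genes with a mean of at least 1 TPM. The 3 were named because they were called in these same wells, so their lack of overlap adds nothing to the calls.

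None of the other genes of that list was called, in either direction. Spred2 (log2 -0.18, edgeR adjusted p = 0.137) and Il17rd (0.16, edgeR adjusted p = 0.149), both inhibitors of the pathway, were those at an unadjusted p under 0.05 and are named after their values were seen. Etv5, the ETS partner of Etv4, read 178.2, 180.6 and 181.6 TPM in WT and 183.4, 172.8 and 177.8 TPM in KO wells (edgeR adjusted p = 0.54), and Spry1 had a log2 difference of -0.15 ± 0.10 (edgeR adjusted p = 0.409). The median over the 21 genes was 0.02, and the median over all genes tested was -0.03. Egr1, an immediate early target of ERK, stayed at 0.23 to 0.41 TPM in all 6 wells.

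**Figure D4:**
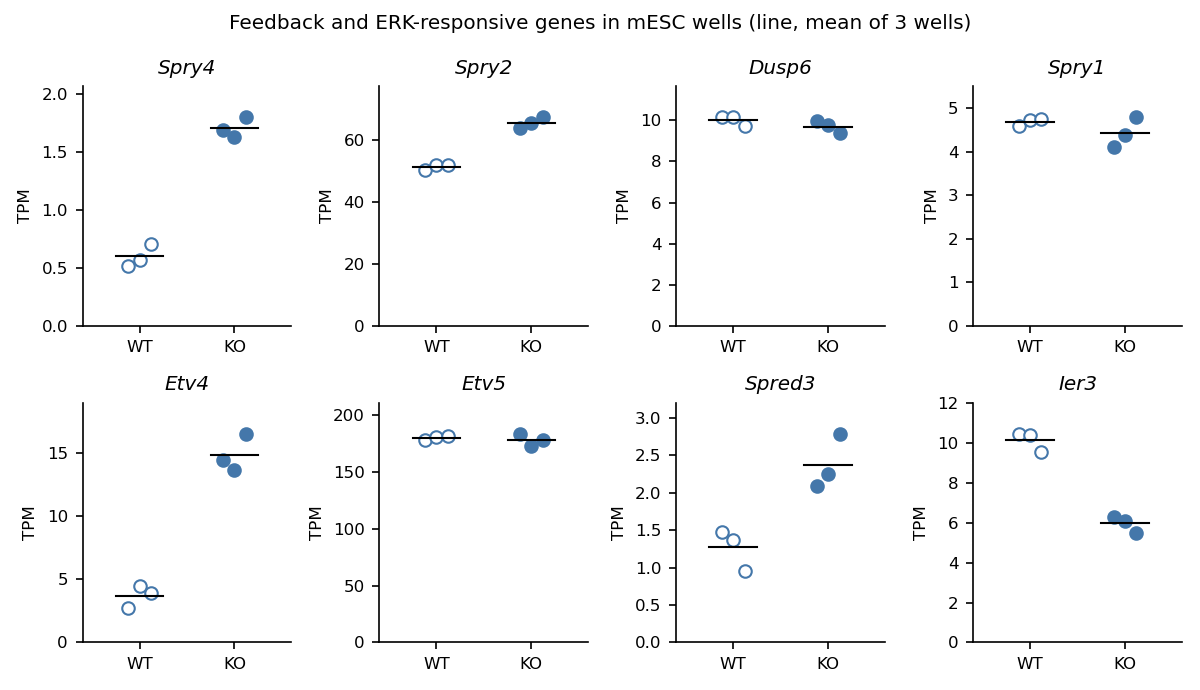
TPM of 8 feedback and ERK-responsive genes in the 3 WT (open) and 3 KO (filled) mESC wells, on linear axes from 0, with the mean as a line. Spry4, Spry2, Etv4 and Spred3 are higher in KO wells and Ier3 is lower, while the wells of Dusp6, Spry1 and Etv5 overlap.

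Upstream of these, 4 genes passed in mESC. Among 24 heparan sulfate genes (core proteins and chain-modifying enzymes), 2 were higher and 1 lower in KO wells, and 9 had an unadjusted p under 0.05, against the 6.86% of all genes called and 21.2% at an unadjusted p under 0.05. Gpc6, a glypican, rose from 1.32 to 1.47 TPM in WT to 2.27 to 2.87 TPM in KO wells (log2 0.76 ± 0.16, edgeR adjusted p = 0.00689). Ndst2, one of the chain-modifying enzymes, had a log2 difference of 0.36 ± 0.10 (edgeR adjusted p = 0.0404). That call was lost without any 1 well other than KO well 1 (adjusted p 0.0696 to 0.183). With all wells kept it was also lost with RLE scaling factors (edgeR adjusted p = 0.0504) or a filter on summed counts above 1 (0.0537). Sdc4, a syndecan, fell from 142.7 to 148.5 TPM to 110.2 to 123.9 TPM (-0.36 ± 0.06, edgeR adjusted p = 0.000772), a call lost on log2(TPM + 0.5) (-0.29, limma adjusted p = 0.0577). Of 22 signal transduction genes only Cbl, a ubiquitin ligase that takes receptors off the surface, was called, against 6.86% of all genes, and 5 had an unadjusted p under 0.05, against 21.2%. It fell from 23.52 to 25.98 TPM to 16.26 to 16.73 TPM (-0.66 ± 0.14, edgeR adjusted p = 0.0103), a call lost without WT well 3, KO well 2 or KO well 3 (adjusted p 0.0504 to 0.0552).

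None of the 14 other FGF genes that could be tested was called in mESC, and 3 had an unadjusted p under 0.05, against 21.2% of all genes. Fgf17 was the next most abundant ligand after Fgf4 there, at 10.1 ± 0.748 TPM in WT and 14.8 ± 0.873 TPM in KO wells (SD, n = 3 each; edgeR adjusted p = 0.329). Fgf11 was at 2.56 TPM, Fgf3 at 1.53 TPM and Fgf13 at 1.18 TPM in WT wells, and the others of these 14 were under 1 TPM. None of 9 receptor-like and co-receptor genes was called, with 2 at an unadjusted p under 0.05, against the same 21.2%. The 10 markers of feeder fibroblasts summed to 4.4 to 5.27 TPM in WT and 2.21 to 2.97 TPM in KO wells, with 0 of the 10 at 0 in either genotype. By edgeR 3 of the 10 were called lower, where 4.59% of all genes were. At an unadjusted p under 0.05 there were 6 of the 10, against 21.2% of all genes. The part of feeder cells in the differences above was not tested.

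In the kidney none of the 10 genes was called by edgeR or by DESeq2, and 0 had an unadjusted p under 0.05. Of all genes 0.223% were called there, and 7.6% had an unadjusted p under 0.05. Dusp6 read 47.23, 41.41 and 39.64 TPM in WT and 46.95, 56.55 and 46.85 TPM in KO kidneys (log2 0.15 ± 0.08, adjusted p = 0.722). Fgfr1 read 120.3, 103.6 and 124.8 TPM in WT and 137.4, 146.6 and 131.7 TPM in KO kidneys (0.11 ± 0.08, adjusted p = 0.786), and Fgfr4 2.53, 2.65 and 1.91 TPM in WT and 3.94, 2.85 and 2.80 TPM in KO kidneys (0.31 ± 0.23, adjusted p = 0.809). Fgfr1 and Fgfr4 were the members whose genotypes did not overlap on TPM, against 18.8% of genes with a mean of at least 1 TPM. Fgfr2 read 59.87, 50.70 and 65.52 TPM in KO kidneys (0.17 ± 0.09, adjusted p = 0.717).

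The remaining genes overlapped. In KO kidneys 7, 9 and 10 Spry2 read 20.61, 24.93 and 19.04 TPM, Spry4 8.54, 11.75 and 10.47 TPM and Fgfr3 4.70, 3.32 and 4.20 TPM. Fgf9 read 3.24, 3.06 and 3.45 TPM and Fgf10 6.53, 7.68 and 6.94 TPM, and Fgf4 had 1, 0 and 1 counts. Over the 9 genes other than Fgf4 the log2 differences lay between -0.02 and 0.31, with standard errors of 0.08 to 0.23. In the other 5 pathway lists 0 genes were called in the kidney. The 8 skeletal muscle markers summed to 38.7 to 50.5 TPM in WT and 11.7 to 16.7 TPM in KO kidneys. By edgeR 3 of the 7 tested were called lower, where 0.223% of all genes were called in either direction. All 7 had an unadjusted p under 0.05, against 7.6% of all genes. The 4 macrophage markers summed to 24.2 to 34.1 TPM and 15.7 to 23.5 TPM, with 0 called. No marker of either list was at 0. Their part in the kidney values was not tested.

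In GE/OB, too, none of the 10 genes was called by edgeR or by DESeq2 and 0 had an unadjusted p under 0.05, where 0.063% of all genes were called and 3.01% had an unadjusted p under 0.05. Dusp6 read 10.89 and 12.40 TPM in WT and 14.24 and 12.89 TPM in KO embryos (log2 0.20 ± 0.12). It was the one member whose genotypes did not overlap on TPM, against 30.3% of genes with a mean of at least 1 TPM. For Spry2 the KO embryos 2 and 7 read 13.36 and 15 TPM, for Spry4 2.38 and 1.58 TPM, for Fgfr1 74.21 and 80.68 TPM, for Fgfr2 46.40 and 57.90 TPM and for Fgfr3 44.75 and 66.17 TPM. Each of these pairs reached into the range of the WT pair. Fgf9 was at 6.06 and 3.20 TPM, Fgf10 at 0.81 and 0.35 TPM, Fgfr4 at 0.84 and 0.16 TPM and Fgf4 at 0 counts in both. With 2 embryos a genotype the intervals were wide. The interval for Fgfr4 ran from -1.11 to 0.85 on the log2 scale, and that for Spry4 from -0.23 to 0.73. In the other 5 pathway lists 0 genes were called.

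The KO effects of the tissues were then compared with each other in the same fit. Between mESC and kidney, Spry4 was the 1 gene of the 10 whose KO effect differed. Of all genes 2.24% differed, and 0.739% did so with a positive value of the mESC effect minus the kidney effect. At an unadjusted p under 0.05 they were 5 genes, against 15.5% of all genes. Its effect was 1.43 in mESC and 0.04 ± 0.14 in kidney, a difference of 1.38 ± 0.25 on the log2 scale (edgeR adjusted p = 0.00553). Without 1 library in turn the difference was 1.27 to 1.54 (adjusted p 0.0037 to 0.0269), but on log2(TPM + 0.5) it was 0.90 and not called (limma adjusted p = 0.0604). Between mESC and GE/OB the Spry4 difference was 1.18, and none of the 10 genes was called by edgeR (adjusted p = 0.103 for Spry4), where 1.08% of all genes were called. At an unadjusted p under 0.05 they were 3 (Spry4, Spry2 and Fgf9), against 10.6% of all genes. DESeq2 called it (adjusted p = 0.00943), and so did edgeR without GE/OB KO embryo 2 (1.55, adjusted p = 0.0394). Between kidney and GE/OB edgeR called none of the 10, where 0.0344% of all genes were called, and 0 had an unadjusted p under 0.05, against 4.23% of all genes. Etv4 differed in both comparisons with mESC, by 1.80 ± 0.16 from kidney (edgeR adjusted p = 7.06e-06) and by 1.68 ± 0.25 from GE/OB (edgeR adjusted p = 0.00216). Its level was 53.41 to 68.72 TPM over the 6 kidneys and 3.07 to 4.50 TPM over the 4 GE/OB libraries, so its KO mESC wells stood above GE/OB and below kidney.

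As a last description, the genes with the most similar profile were sought among 12936 genes with a mean of at least 5 TPM in some group, by Pearson's r of log2(TPM + 0.5). The 16 libraries fall into 3 tissues, so r mostly reads the tissue means, and no p is given. For Fgf4 the nearest genes were AU018091 and Tex19.1, both near 0 outside mESC (r of at least 0.9999). For Spry4 they were Prr5l (r = 0.988) and Itgb1 (r = 0.981), and Prr5l also read 0.410 TPM in mESC WT and 1.65 TPM in mESC KO. For Spry2 they were Hk2 and Rrs1, and for Dusp6 Ism1 and Moxd1, the last pair being high in kidney alone. The receptors gave Disp1 and Mmp14 (Fgfr1), Cntln and Pex2 (Fgfr2), Slc35f1 and Cdh22 (Fgfr3) and Kcnk1 and 0610040J01Rik (Fgfr4, r = 0.971 and 0.957). The ligands gave 2010012O05Rik and Gucy1a3 (Fgf9) and Kcns3 and Uqcrb (Fgf10).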

How the data were processed

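RNA-seq libraries of mESC (3 WT, 3 KO), E14.5 kidney (3 WT, 3 KO) and E14.5 GE/OB (2 WT, 2 KO) were used. Reads were aligned by the authors to mm10 with bowtie2 within RSEM (versions not given in the sources used here), and for each of 26759 genes the deposited files give an expected count, a TPM value and an effective length. The library kit does not keep strand, so reads of a gene and of an overlapping antisense gene cannot be told apart. Expected counts, which the authors deposited without normalization, were rounded and fitted with edgeR 4.0.16 in R 4.3.3 (TMM factors, filterByExpr by group, 1 coefficient per tissue and genotype, quasi-likelihood test). Standard errors are the log2 difference divided by the square root of F. A gene was called at a two-sided Benjamini-Hochberg adjusted p under 0.05 over 17459 genes. TPM values are as the authors' deposited files give them. The fit was tested on simulated data.

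The 10 genes, the lists and the comparisons were chosen with earlier results of these data known. The rule for names takes all 10 genes, up to 4 called genes of each pathway list and tissue, other FGF genes from a mean of 1 TPM in a group, and the 2 most similar genes per member. Marker lists of adrenal, choroid plexus, endothelium, erythroid cells and meninges gave 1 call between KO and WT, an endothelial marker higher in mESC. Of all genes 2.27% were called higher in mESC, and 0.223% were called in kidney and 0.063% in GE/OB. In kidney 3 of the 4 erythroid markers had an edgeR unadjusted p under 0.05, against 7.6% of all genes. These 4 summed to 3525 to 6549 TPM in WT and 2607 to 4135 TPM in KO kidneys, which overlapped. Their part in the kidney values was not tested. In mESC KO wells 1 of the 8 stem cell markers and 1 of the 8 kidney markers were also called lower, where 4.59% of all genes were. Alternatives used DESeq2 1.42.0, DESeq2 with effective length offsets, RLE factors, other count filters, sex as a covariate, limma 3.58.1 on log2(TPM + 0.5), single tissues, an adjusted p under 0.01, a 2-fold minimum, the KO libraries in place of WT, a replicate block in mESC, and each library left out. Low counts have exact binomial intervals (scipy 1.17.1). Figures were drawn with matplotlib 3.10.9 and tables with pandas 2.3.3 (Python 3.11.15). Reporter assay counts and Hi-C were not used here.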

Additional observations from a re-analysis of the deposited data

Results flagged for a closer look

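Spry4 and Etv4 had KO effects that differed between tissues by a test of the difference itself. For Spry4 the effect in mESC exceeded that in kidney by 1.38 on the log2 scale (edgeR adjusted p = 0.00553). For Etv4 it exceeded that in kidney by 1.80 (edgeR adjusted p = 7.06e-06) and that in GE/OB by 1.68 (edgeR adjusted p = 0.00216). Sdc4 was lower in mESC KO wells on counts (-0.36) but not called on log2(TPM + 0.5) (-0.29, limma adjusted p = 0.0577), and it had a log2 difference of 0.28 in kidney (edgeR adjusted p = 0.0941), and the KO effects differed by -0.64 (edgeR adjusted p = 0.000444). No group had the 4 samples that a check for single outlying samples needs.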

How the results depend on the processing

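The calls in mESC rest on few wells of 1 clone per genotype. There 2 genes were called, 1 with sex as a covariate, 1 at an adjusted p under 0.01, and 1 whenever a well was left out (lowest and highest 1 and 1). The gene lost was Spry2 each time, and Spry4 stayed called. All mESC wells are male, so the sex term could not adjust that contrast for sex. Deviations from the group means had correlations of 0.00553 to 0.0452 between same-numbered WT and KO wells. Between the other pairs of WT and KO wells they were -0.0272 to 0.01. These values cannot settle whether same-numbered wells shared a batch. With the replicate block 2 genes were called.

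For the KO effect of mESC minus kidney 1 gene was called, 0 on log2(TPM + 0.5) and 1 to 2 with a library left out. For mESC minus GE/OB 0 were called, 1 with either DESeq2 run and 0 to 1 with a library left out (1 without GE/OB KO embryo 2). The other counts of members stayed within 1.5 times. Over all genes, calls of KO against WT numbered 1198 in mESC (596 to 1435 with a library left out, 955 to 4027 under the other settings, of which 3561 with mESC fitted alone and 4027 with the replicate block). They numbered 39 in kidney (20 to 77 and 10 to 76) and 11 in GE/OB (2 to 7 and 6 to 19). The KO effects gave 391 calls for mESC minus kidney (214 to 457 and 365 to 704), 188 for mESC minus GE/OB (88 to 245 and 67 to 349) and 6 for kidney minus GE/OB (2 to 9 and 6 to 27).

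Some log2 differences turned sign. On log2(TPM + 0.5) GE/OB against mESC became 0.43 for Fgfr4 and 0.21 for Dusp6, and GE/OB against kidney 0.0037 for Fgfr2 and 0.38 for Fgf9. DESeq2 with length offsets gave 0.34 for Fgfr4 against mESC, and KO libraries gave -0.38 for Spry4. The kidney Spry4 difference became -0.012 with sex as a covariate. With a library left out, Fgfr4 in GE/OB against mESC ranged from -0.73 to 0.30, Fgf9 in GE/OB against kidney from -0.40 to 0.031, and the KO difference of Spry4 from -0.076 to 0.16 in kidney and -0.12 to 0.55 in GE/OB. Of the uncalled KO differences, 2 of 8 in mESC, 5 of 9 in kidney and 7 of 9 in GE/OB changed sign somewhere, and 0 became called. The cause was not tested.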
